A study of Mus musculus with 25 samples.

Results

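Chromatin contacts were followed at the mouse genes Lifr, Il6st, Stat3 and Socs3, which encode the signalling chain from leukaemia inhibitory factor (LIF) to its feedback inhibitor. Each gene was located by the 10 kb bin to which the authors' 2 TKO interaction lists give its name, and every listed pair of bins touching that bin was taken from all 9 lists. This gave 56 distinct bin pairs out of 493983 in the whole series: 22 at Il6st, 14 at Lifr, 11 at Socs3 and 9 at Stat3. A listed pair is called an interaction here, and its other bin is called the partner.

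The study used HiChIP, in which DNA ends near each other in the nucleus are joined and the products pulled down with an antibody, and Hi-C, which has no antibody step. One antibody bound H3K27ac, the acetylated histone found at active promoters and enhancers, and the other bound the transcription factor KLF4. The 25 libraries form 9 groups with 1 interaction list each. For H3K27ac there were 2 libraries each of MEF and ES and 3 each of TKO at 0 h and at 24 h. For KLF4 there were 3 of day 3 and 4 each of day 6 and of ES, and MEF and ES had 2 Hi-C libraries each.

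MEFs are mouse embryonic fibroblasts, here from E13.5 embryos with 1 copy each of an OKSM cassette, rtTA3 and an Oct4-GFP reporter, collected at passage 3. The series text writes the genotype as Rosa26-M2rtTA/Col1a1-OKSM. The cassette is switched on by doxycycline and encodes the reprogramming factors, KLF4 among them. Day 3 and day 6 cells were such fibroblasts kept in doxycycline with ascorbic acid for 3 or 6 days. Day 3 cells were taken in bulk and day 6 cells were sorted for the surface marker SSEA1, so the KLF4 lists of those days differ in cell selection as well as in time. ES cells were the hybrid line V6.5 in 2i medium. The TKO cells carry the same line name and medium, without doxycycline (0 h) or with it for 24 h. The labels do not say what TKO stands for, and the genes altered in these cells are not named here. No label says that replicates came from separate embryos or cultures, so p-values measure the spread between these libraries, which may be technical.

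LIF binds a receptor made of LIFR and the shared subunit gp130, the product of Il6st. Receptor-bound JAK kinases then phosphorylate STAT3, which enters the nucleus and binds DNA as a dimer. In mouse ES cells this route is known for sustaining self-renewal in serum, and among its targets are Klf4 and Socs3, whose protein binds gp130 and JAK and shuts the signal off.

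The 4 named bins lie on chromosomes 15, 13 and 11 of mm10. Lifr (plus strand, gene at chr15:7090610-7197489) is named at chr15:7090001-7100000. Il6st (plus strand, chr13:112464070-112506860) is named at chr13:112460001-112470000. Stat3 (minus strand, chr11:100886806-100939594) is named at chr11:100930001-100940000. Socs3 (minus strand, chr11:117966079-117970336) is named at chr11:117970001-117980000. All 4 bins carried an H3K27ac peak in the TKO cells at 0 h and at 24 h in the authors' table. For Il6st and Stat3 the start site of the RefSeq promoter table falls inside the named bin. For Socs3 it lies 0.635 kb outside, in the neighbouring bin, and for Lifr the start sites lie 29.6 and 40.5 kb downstream of it. The named Lifr bin thus holds the outermost 5′ end of the annotated gene, and numbers of interactions at the start-site bins are given with the results.

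The promoter sequences are shown for the sites that STAT and KLF factors are known to bind. The Il6st and Stat3 windows lie in the named bins, and the Socs3 and Lifr windows do not. Each is the 250 bases before the start site, read 5′ to 3′ on the strand of the gene, from RefSeq (GRCm38.p6). Capitals mark TTCNNNGAA, a palindrome that STAT dimers are known to bind, and CACCC or its reverse complement GGGTG, the core of sites bound by KLF factors. The windows are chr15:7129322-7129571 for the upstream Lifr start site, chr13:112463820-112464069 for Il6st, chr11:100939541-100939790 for Stat3 and chr11:117969367-117969616 for Socs3.
Lifr: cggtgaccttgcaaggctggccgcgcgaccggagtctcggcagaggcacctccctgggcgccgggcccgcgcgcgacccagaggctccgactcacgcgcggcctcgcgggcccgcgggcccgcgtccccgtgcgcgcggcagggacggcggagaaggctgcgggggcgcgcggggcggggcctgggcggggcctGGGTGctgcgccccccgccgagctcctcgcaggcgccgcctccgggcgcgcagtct
Il6st: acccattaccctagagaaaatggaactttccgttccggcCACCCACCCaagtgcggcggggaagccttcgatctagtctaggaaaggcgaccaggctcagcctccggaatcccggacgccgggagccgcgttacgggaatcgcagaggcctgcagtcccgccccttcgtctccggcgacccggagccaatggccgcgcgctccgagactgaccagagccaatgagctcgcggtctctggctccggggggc
Stat3: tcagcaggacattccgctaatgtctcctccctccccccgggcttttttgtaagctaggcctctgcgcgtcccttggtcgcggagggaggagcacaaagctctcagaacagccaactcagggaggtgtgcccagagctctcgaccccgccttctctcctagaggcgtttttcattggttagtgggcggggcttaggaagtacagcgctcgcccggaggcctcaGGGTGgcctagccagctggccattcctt
Socs3: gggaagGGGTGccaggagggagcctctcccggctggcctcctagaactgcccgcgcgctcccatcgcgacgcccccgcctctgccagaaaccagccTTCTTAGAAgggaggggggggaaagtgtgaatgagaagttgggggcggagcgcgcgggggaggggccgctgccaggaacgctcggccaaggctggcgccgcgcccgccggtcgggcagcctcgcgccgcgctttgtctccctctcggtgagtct
Both strands were searched. The STAT palindrome occurred once, in the Socs3 window, and 7.02% of the 32851 promoters of the table hold it. The stricter form TTCCNGGAA, every match of which is also a TTCNNNGAA match, was in none of the 4 windows and in 0.913% of all promoters. CACCC was in each of the 4 windows, with 2 copies that overlap at Il6st, and in 52% of all promoters. These matches describe letters in the windows only.

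No listed p-value was above 0.1 in HiChIP or 0.01 in Hi-C. Strength is given in CPM, the authors' contact count scaled to the contact total of the same chromosome. Every listed library value was at least 3 CPM in the H3K27ac lists and at least a signal of 15 in Hi-C, while the KLF4 lists held single library values below 3 CPM. An interaction missing from a list may have failed either limit, so its strength is unknown and need not be low. HiChIP depth ran from 48.7 to 181 M contacts per library, and it moved with the groups: the MEF H3K27ac libraries held 75 and 105 M contacts and the ES ones 166 and 168 M. The cell labels were checked through listed interactions at marker genes. The 5 pluripotent markers with a bin (Nanog, Pou5f1, Sall4, Zfp42, Tdgf1) had 1 H3K27ac interaction together in MEF and 85 in ES, 72 in TKO at 0 h and 66 at 24 h. The 4 fibroblast markers with a bin (Thy1, Col1a1, Vim, Pdgfrb) had 32 in MEF and 1 in ES, and 6 and 4 in TKO. Thy1, Col1a1 and Vim were at 0 in ES. Each marker list held 7 genes. Those without a bin (Sox2 and Esrrb, and Prrx1, Twist1 and Snai2) could not be read, since only the TKO lists name genes.

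Il6st had the most listed interactions of the 4 genes in all 4 H3K27ac lists, and Stat3 was the only one of the 4 with fewer H3K27ac interactions in ES than in MEF in the lists as deposited. With lists of equal length the differences were -5 at Stat3 and -1 at Il6st, with 1 count cutoff -4 and -2, and under an FDR of 0.1 they were 0 and 1. Il6st had 15 H3K27ac interactions both in fibroblasts and in ES cells, and 14 and 12 in the TKO lists of 0 h and 24 h. Socs3 went from 2 in MEF to 10 in ES, with 5 in each TKO list. Lifr had 2 in MEF, 6 in ES, and 7 and 6 in TKO. Stat3 had 8 in MEF, 3 in ES and 4 in each TKO list. Over all 12695 genes that the authors name, the medians were 1, 3, 4 and 3 in the order MEF, ES, TKO 0 h and TKO 24 h. Genes are named in the TKO lists alone. Every share over all genes therefore leaves out genes whose bin is in neither TKO list, also those with contacts in MEF. Of the named genes, 42.3% had no H3K27ac interaction in MEF and 5.9% had none in TKO at 0 h. The Il6st number in MEF was above that of 99.6% of genes and in ES above 96.1%.

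In KLF4 HiChIP, Stat3 had 5 interactions at day 3, 1 at day 6 and 3 in ES, and Il6st had 3, 1 and 5. Lifr had none at day 3 or day 6 and 4 in ES. Socs3 had 2 at day 3 and none at day 6 or in ES, although its start-site bin held 2 at day 3 and 1 in ES. The upstream Lifr start-site bin had no KLF4 interaction in ES and the downstream one had 1. Over all named genes, 39.2% had more and 16.3% fewer KLF4 interactions in ES than at day 3, 54.9% had more and 1.52% fewer in ES than at day 6, and 2.91% had more and 36.8% fewer at day 6 than at day 3. Hi-C listed 5 interactions of Socs3, 6 of Stat3, 6 of Lifr and 10 of Il6st in MEF, against 3, 2, 9 and 10 in ES, where 73.5% of all named genes had more and 11.7% fewer. At the start-site bins Hi-C listed 8 in MEF and 6 in ES for Socs3, 3 and 1 for the upstream Lifr site and 7 and 10 for the downstream one. A list is 1 value per group, so these numbers carry no test.

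**Figure D1:**
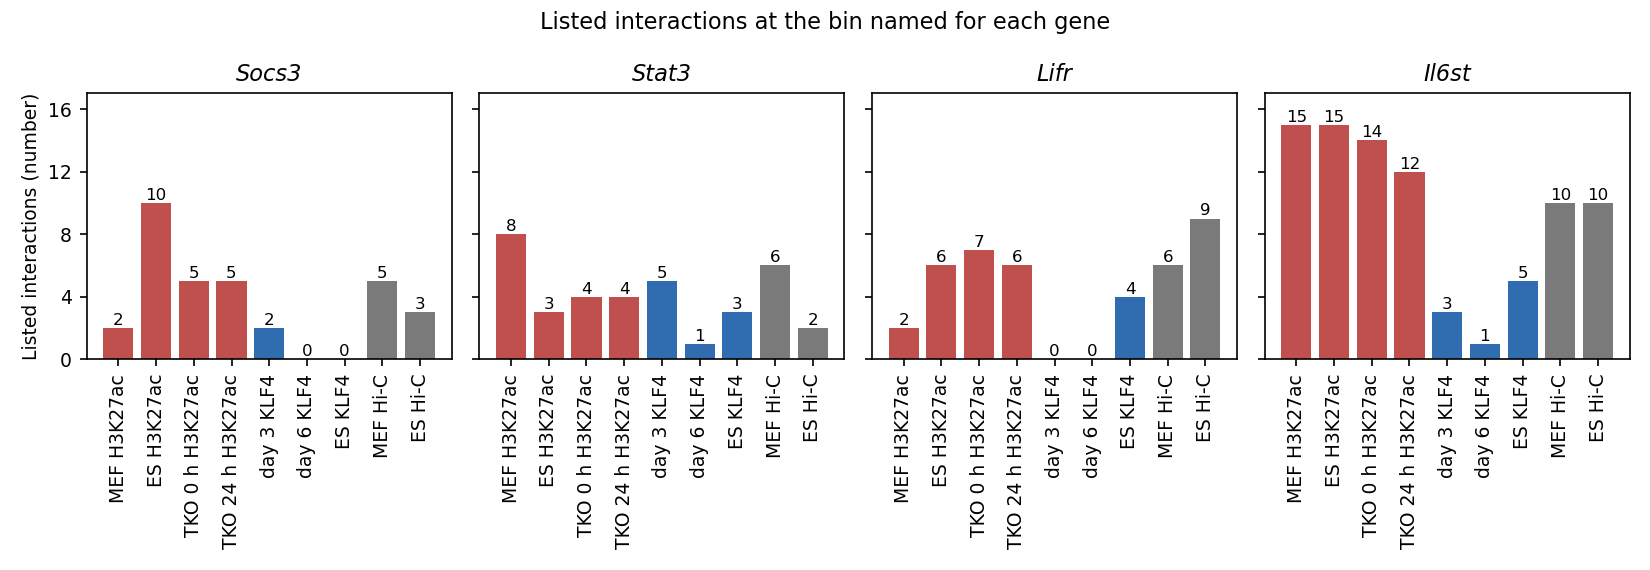
Number of listed interactions (y axis) at the bin named for each gene, 1 panel per gene and 1 bar per list (x axis), with H3K27ac HiChIP in red, KLF4 HiChIP in blue and Hi-C in grey. Stat3 stands at 8 in MEF and 3 in ES in H3K27ac while Socs3 stands at 2 and 10 and Lifr at 2 and 6, and Il6st stands at 12 or more in all 4 H3K27ac lists.

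Partners lay within 160 kb and inside the domain of the gene. All 56 partners were in the same topologically associating domain as the gene bin, in both the MEF and the ES domain lists. This follows from the short distances, since for each gene the nearest domain border was farther away than the farthest partner. At Il6st these were 174 kb in the MEF domain list and 160 kb. The domain of Stat3 spanned 2120 kb in both cell types, that of Socs3 600 kb in MEF and 560 kb in ES, that of Lifr 560 and 360 kb, and that of Il6st 360 and 760 kb. Of the 56 partners, 17 lay in the body of the gene itself, 28 touched another annotated gene and 11 touched none. An H3K27ac peak was present at 27 of the 50 partner bins that occur in the TKO lists (54%, against 54.4% of all 54825 bins there). By gene these were 10 of 11 at Socs3, 8 of 13 at Lifr, 8 of 21 at Il6st and 1 of 5 at Stat3. Only 2 interactions were in all 9 lists, Il6st with the bin 20 kb upstream and Stat3 with the bin 20 kb downstream, and 12 were in 1 list.

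**Figure D2:**
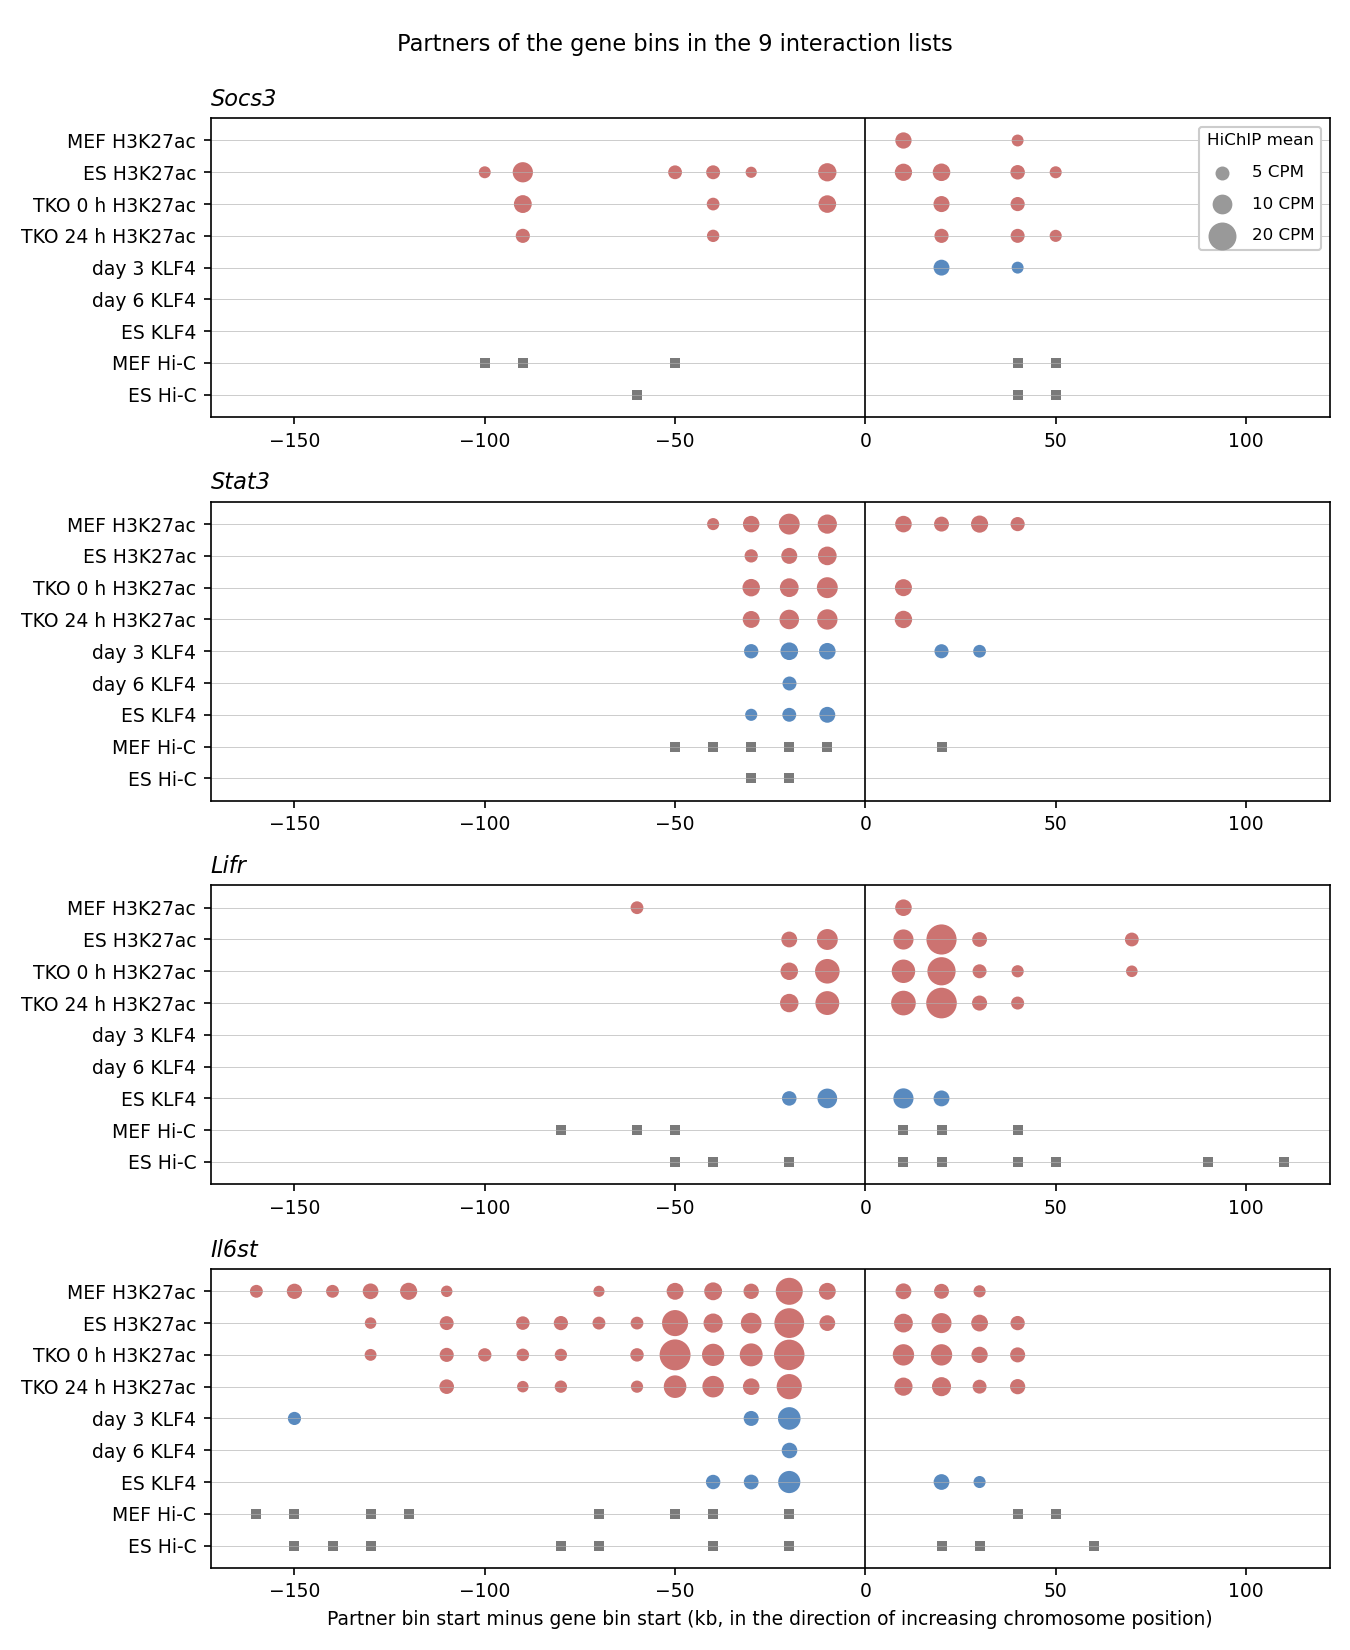
Partners of each gene bin by distance (x axis, kb between bin starts, positive toward higher chromosome positions) and list (y axis), with the area of a circle giving the mean HiChIP CPM and a square marking a Hi-C interaction. Il6st and Lifr lie on the plus strand, so upstream is to the left for them, and Stat3 and Socs3 lie on the minus strand. The Stat3 partners on its upstream side at 20 to 40 kb occur in MEF and day 3 lists, and the strongest Il6st partners are those 20 and 50 kb upstream.

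At Lifr, the ligand-binding receptor subunit, the strongest H3K27ac interaction of ES and TKO cells was not listed in MEF H3K27ac. It joins the named bin to chr15:7110001-7120000, 20 kb downstream within the gene, in a bin with an H3K27ac peak. The values were 20.6 and 26.0 CPM in the 2 ES libraries, from 142 and 182 contacts, and 18.6, 20.8 and 21.6 CPM in TKO at 0 h. At 24 h they were 21.9, 25.6 and 23.1 CPM. All 8 libraries were thus within 18.6 to 26.0 CPM, and the median over the ES list was 5.51 CPM. In ES KLF4 HiChIP the same pair gave 7.74, 4.66, 6.35 and 7.09 CPM. The MEF Hi-C list did hold this pair, at a signal of 33.6 and 55.1, against 42.9 and 44.3 in ES.

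The other Lifr interactions of ES formed a short array on both sides of the named bin. The bins 10 kb upstream and 10 kb downstream gave means of 11.2 ± 0.3 and 10.4 ± 1.01 CPM (SD, n = 2) in ES H3K27ac, and 9.92 ± 0.789 and 10.4 ± 2.11 CPM (SD, n = 2 after joining 4 libraries) in ES KLF4. The ES KLF4 list thus ranked the nearest Lifr partners first, where the H3K27ac list ranked the partner 20 kb downstream first. In MEF H3K27ac, Lifr kept the partner 10 kb downstream (8.91 and 5.19 CPM) and one 60 kb upstream (4.77 and 3.61 CPM), which no ES or TKO list held. The longest contact of ES and of TKO at 0 h reached 70 kb downstream within Lifr (4.89 and 3.45 CPM on average). The bin of the upstream start site had no H3K27ac interaction in MEF, 8 in ES and 5 in each TKO list, and in ES its strongest was with the bin 10 kb upstream of it, chr15:7110001-7120000, at 30.3 ± 3.2 CPM (SD, n = 2). The bin of the downstream start site had none in MEF, 4 in ES, and 7 and 4 in TKO. The bin chr15:7110001-7120000 was therefore the strongest H3K27ac partner of both the named bin and the upstream start-site bin in ES cells.

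At Il6st, which encodes the gp130 subunit shared by the receptors of the IL-6 family, the nearest strong upstream contact was shared by all cell types, and the listed contacts beyond 100 kb were more in MEF than in ES. The partner 20 kb upstream, chr13:112440001-112450000, led the MEF, ES and TKO 24 h H3K27ac lists and all 3 KLF4 lists. It gave 14.4 and 23.1 CPM in MEF, 23.4 and 22 in ES, and 22.5, 24.3 and 24.5 in TKO at 0 h. One MEF library lay within the range of the ES and TKO 0 h libraries and the other below all of them. In KLF4 HiChIP it gave 14.1, 12.5 and 12.6 CPM at day 3, 7.98, 5.19, 5.78 and 5.84 at day 6, and 12.3, 9.95, 15.3 and 12.8 in ES. Day 6 lay below both other groups in every library on this scale.

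Farther out, the MEF list held a run of Il6st contacts with the body of Ankrd55, from 110 to 160 kb upstream. All 6 consecutive bins of that run were listed in MEF, at means from 3.38 to 7.51 CPM, and the strongest pair that ES lacked was the one at 120 kb (7.19 and 7.82 CPM). In H3K27ac, ES listed 2 of the 6, at 110 and 130 kb, and TKO at 24 h listed the one at 110 kb. In Hi-C, however, ES listed the bins at 130, 140 and 150 kb, and MEF those at 120, 130, 150 and 160 kb. Absence from the ES H3K27ac list was thus not absence of the contact at 140 and 150 kb. The longest Il6st contact was 160 kb in MEF, 130 kb in ES and in TKO at 0 h, and 110 kb in TKO at 24 h. Day 3 KLF4 HiChIP also held 1 of these long contacts, at 150 kb, with 3.82, 4.62 and 4.89 CPM. In ES, the strongest Il6st pair missing from MEF was with the bin 40 kb downstream, within Il6st, at 5.24 ± 0.033 CPM (SD, n = 2).

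At Stat3, the transducer of the signal, the contacts of fibroblasts ran to both sides and those of ES cells stayed within the gene. The bins 10, 20 and 30 kb downstream, all in the body of Stat3, were listed in all 4 H3K27ac lists and in ES KLF4. The strongest in MEF was at 20 kb, with 11.9 and 10.4 CPM, and the strongest in ES was at 10 kb, with 9.48 and 8.34 CPM. On the upstream side, MEF cells had contacts at 10, 20, 30 and 40 kb, of which the last 3 fall in Cavin1, a gene for a coat protein of caveolae. The pair at 30 kb was the strongest that ES lacked, at 8.21 and 6.87 CPM in MEF, and the pair at 40 kb reached the Cavin1 start (6.36 and 3.90 CPM). Day 3 KLF4 HiChIP listed the Cavin1 contacts at 20 kb (6.30, 4.85 and 4.10 CPM) and 30 kb (4.82, 4.28 and 3.43 CPM). No ES or TKO list held a contact of Stat3 with Cavin1, and TKO cells had only the nearest upstream contact, at 10 kb. The drop from 8 to 3 H3K27ac interactions between MEF and ES was matched or exceeded by 2.36% of the 12695 genes.

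At Socs3, the feedback inhibitor, 8 of the 10 ES H3K27ac interactions were not in the MEF H3K27ac list. Absence was common over all genes too, as only 17901 of the 75466 interactions of the ES list were in the MEF list. Of the 8 at Socs3, 4 were in the MEF Hi-C list. The strongest of the 8 was with chr11:117880001-117890000, 90 kb downstream, in a bin that touches Gm11725 and carries an H3K27ac peak. It gave 10.4 and 10.5 CPM in ES, 7.70, 7.30 and 9.51 in TKO at 0 h and 4.49, 4.67 and 6.70 in TKO at 24 h. The MEF Hi-C list held it at a signal of 15.2 and 18.6. The 24 h libraries were all below the 0 h ones, and the test of that difference is given with the TKO comparison. The longest Socs3 contact in ES was at 100 kb, in a bin the authors name for Gm11725 and Tha1, with 3.81 and 3.52 CPM. In MEF, both Socs3 contacts pointed upstream into Pgs1, an enzyme gene of mitochondrial phospholipid synthesis, at 10 kb (6.89 and 6.69 CPM) and 40 kb (3.18 and 4.09 CPM). The Pgs1 contact at 10 kb was present in ES too (7.01 and 8.24 CPM), and that at 40 kb was in 7 lists. The start-site bin of Socs3 held more interactions than the named bin, with 9 in MEF, 14 in ES and 11 in each TKO list. Its strongest MEF contact, 20 kb downstream, had a mean of 17.4 CPM. In ES and TKO its strongest was again with chr11:117880001-117890000, at 12.6, 11 and 11.8 CPM on average in ES and in the TKO lists of 0 h and 24 h. In day 3 KLF4 HiChIP the strongest Socs3 contact was 20 kb upstream in Pgs1, with 8.15, 6.28 and 4.98 CPM.

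The first tested comparison asks which H3K27ac contacts of these genes differ in strength between fibroblasts and pluripotent cells. Stat3 contacts with 2 bins of its own gene fell. At Il6st the upstream contact at 50 kb rose, and those at 130 and 10 kb fell. Over all, 17901 interactions were in both lists, of 60870 in MEF and 75466 in ES. Only interactions in both lists could be tested, at these genes 17 of the 44 that either list held. Of these, 5 changed by edgeR's quasi-likelihood test at a Benjamini-Hochberg adjusted p under 0.05, 1 higher and 4 lower in ES. Among all 17901 interactions tested 32% were called, 17.6% higher and 14.4% lower, so a share of 5 in 17 is near the background. The median log2 change was 0.13 over the 17 and -0.04 over all.

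Il6st with the bin 50 kb upstream, chr13:112410001-112420000, which holds the start of the predicted gene Gm33905 and an H3K27ac peak, gave 7.19 and 7.43 CPM in MEF. In ES it gave 17.1 and 17.7 CPM, so the groups did not overlap. Called pairs were picked on these same counts, so a lack of overlap adds no support of its own, here and below. The log2 change was 0.91 ± 0.19 (SE, 1.88-fold higher, adjusted p = 0.000161, edgeR's quasi-likelihood test, Benjamini-Hochberg adjustment, n = 2 and 2), and it passed in 9 of 9 alternatives. The bin next to it, at 40 kb, gave 7.74 and 8.61 CPM in MEF and 8.16 and 10.7 in ES, with a log2 change of -0.14 ± 0.21 that was not called. At 130 kb, in Ankrd55, Il6st gave 6.36 and 6.26 CPM in MEF and 3.16 and 3.65 in ES. This pair fell by 1.22 ± 0.25 on the log2 scale (2.33-fold, edgeR adjusted p = 0.000133, Benjamini-Hochberg).

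Stat3 with the bin 20 kb downstream gave 11.9 and 10.4 CPM in MEF against 6.39 and 6.73 in ES, without overlap. It fell by 0.79 ± 0.20 on the log2 scale (1.73-fold, edgeR adjusted p = 0.00123, Benjamini-Hochberg). The pair at 30 kb went from 6.89 and 7.06 CPM to 3.61 and 5.42 CPM and fell by 0.67 ± 0.24 (edgeR adjusted p = 0.0262, Benjamini-Hochberg). The pair at 10 kb hardly differed in CPM, with 9.27 and 9.66 in MEF and 9.48 and 8.34 in ES, and its log2 change was -0.13 ± 0.19. The adjacent Il6st bin, 10 kb upstream, was called lower as well (5.80 and 8.80 CPM in MEF, 6.31 and 6.39 in ES, log2 change -0.58 ± 0.23, edgeR adjusted p = 0.0442, Benjamini-Hochberg), although the MEF libraries enclose the ES ones in CPM.

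These log2 changes are relative to TMM scaling, and the scaling matters here. Scaled to contact totals alone, the median over all interactions moved to 0.21, and 8 of the 17 were called, 6 higher and 2 lower. Over all interactions 6257 of 17901 were then called, 4831 higher and 1426 lower, so the shift toward higher calls was general. Those higher were Il6st with 4 partners (50 and 30 kb upstream, 20 and 30 kb downstream), Lifr 10 kb downstream and Socs3 40 kb upstream, and those lower were Il6st at 130 kb and Stat3 at 20 kb. By edgeR the Stat3 pair at 30 kb lost its call on contact totals (adjusted p = 0.192) and without MEF replicate 1 (0.0905), MEF replicate 2 (0.149) or ES replicate 1 (0.255). The Il6st pair at 10 kb lost its call on contact totals (edgeR adjusted p = 0.301) and without MEF replicate 2 (0.69), ES replicate 1 (0.0833) or ES replicate 2 (0.105). The Stat3 pair at 20 kb had an adjusted p of 0.0561 by DESeq2. The single Lifr pair in both lists, 10 kb downstream, had a log2 change of 0.36 ± 0.24, and the 2 Socs3 pairs had 0.13 ± 0.21 and 0.50 ± 0.26, none of them called.

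**Figure D3:**
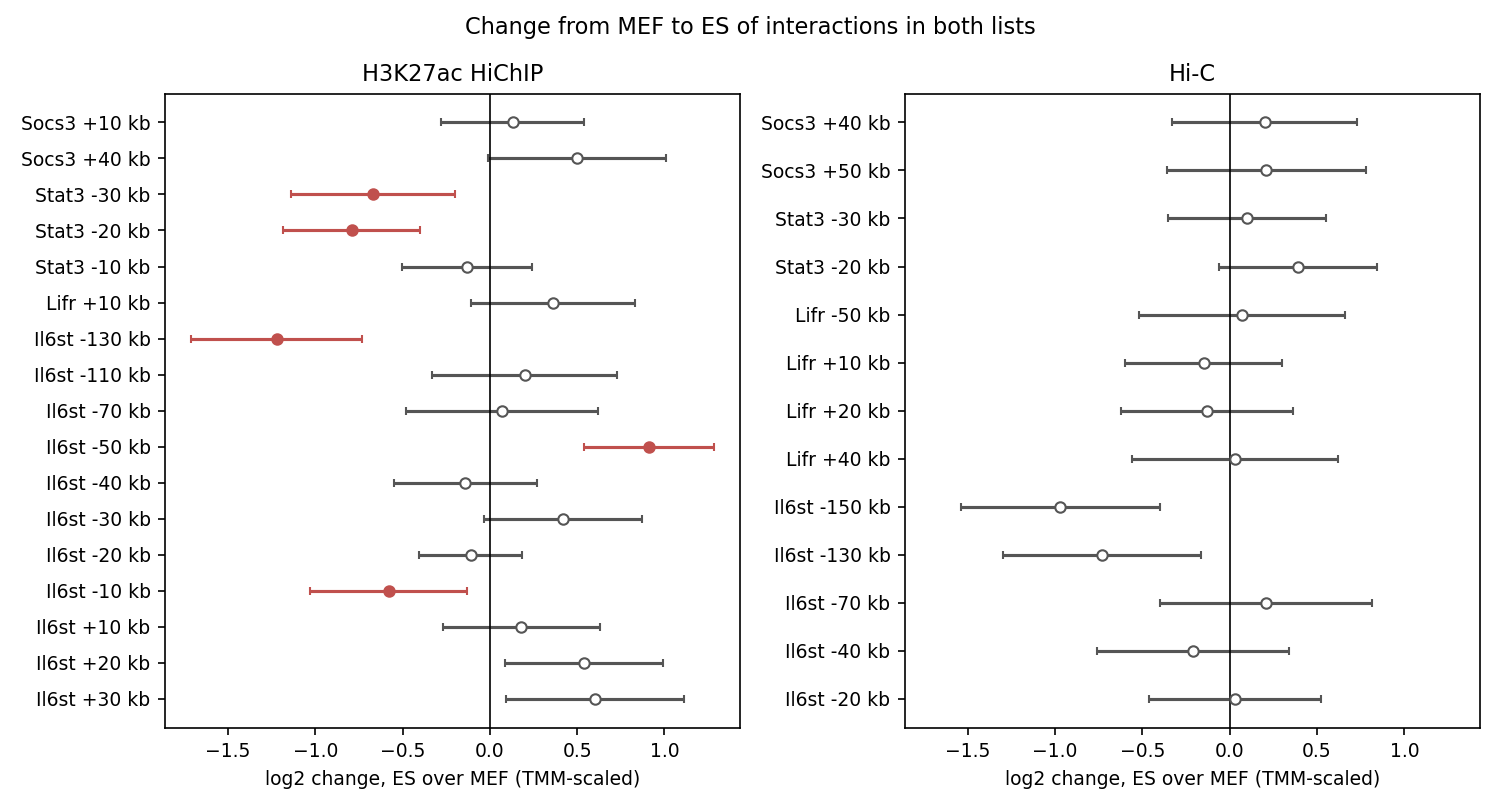
Log2 change from MEF to ES (x axis, point estimate with 95% interval, TMM-scaled) for each interaction in both lists (y axis, partner distance in kb, positive toward higher chromosome positions), for H3K27ac HiChIP at left and Hi-C at right. Filled red points passed the threshold: the Il6st pair at -50 kb lies at 0.91, the pair at -130 kb at -1.22 and the Stat3 pairs at -20 and -30 kb at -0.79 and -0.67, and no Hi-C pair passed.

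Hi-C has no selection for the mark, and only interactions in both Hi-C lists could be tested, which are not all of those tested in H3K27ac. The Il6st pairs at 50 and 10 kb upstream, called in H3K27ac, were not among them. That at 50 kb was in the MEF Hi-C list, at a signal of 21.8 and 22.6, and not in the ES one. That at 10 kb was in neither. None of the 13 shared interactions passed edgeR's quasi-likelihood test, and none passed by DESeq2. An unadjusted edgeR p under 0.05 was reached by 2 of the 13, and by 7487 of all 124544 interactions tested. Of all tested, 0.0289% were called (0.0201% higher and 0.00883% lower). The test recovered 24% of simulated 2-fold changes here, against 71% in H3K27ac. Both pairs at an unadjusted p under 0.05 were long Il6st contacts in Ankrd55. That at 150 kb had a Hi-C signal of 28.6 and 31.9 in MEF and 17.1 and 16.7 in ES, with a log2 change of -0.97 ± 0.29 (edgeR adjusted p = 0.491, Benjamini-Hochberg). That at 130 kb had 28.6 and 27.9 in MEF and 15.9 and 20.8 in ES, with a log2 change of -0.73 ± 0.29 (edgeR adjusted p = 0.76, Benjamini-Hochberg). Both pairs were picked by their unadjusted p, so MEF lying above ES in every library adds no support of its own. The H3K27ac pair at 130 kb was lower in ES too. The Stat3 pair 20 kb downstream, lower in ES in H3K27ac, had 35.6 and 54.6 in MEF Hi-C and 42.6 and 54.6 in ES, with overlapping groups and a log2 change of 0.39 ± 0.23.

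The KLF4 comparison asks how KLF4-anchored contacts differ between reprogramming intermediates and ES cells. At day 3, Stat3 was the gene with the most KLF4 contacts of the 4, including those with Cavin1, and Lifr had none. In ES all 12 KLF4 interactions of the 4 genes were also H3K27ac interactions of ES, that is 100% of the KLF4 ones and 35.3% of the 34 H3K27ac ones. They comprised all 3 Stat3 pairs, 4 of the 6 at Lifr and 5 of the 15 at Il6st. The same share over all ES KLF4 interactions is not given here. Between day 3 and ES, 7387 interactions were in both KLF4 lists over all genes and bins, of 23720 at day 3 and 24589 in ES. Of the 10 interactions of day 3 at the 4 genes, 5 were listed in ES KLF4, 3 at Stat3 and 2 at Il6st. They were 50% of the day 3 and 41.7% of the ES interactions of these genes.

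Of these 5, 1 changed between day 3 and ES, against 7.2% of the 7387 interactions tested (3.02% higher and 4.18% lower in ES). Stat3 with the bin 20 kb downstream gave 7.41, 9.14 and 7.31 CPM at day 3 and 4.42, 7.13, 5.64 and 2.57 in ES, where replicates 1 and 2 and replicates 3 and 4 agreed within sampling noise and were counted as 1 sample each. The day 3 libraries all lay above the ES ones. It fell by 0.75 ± 0.22 on the log2 scale (edgeR's quasi-likelihood test, Benjamini-Hochberg adjusted p = 0.0165, n = 3 and 2). The call was lost with adjusted p of 0.137 without day 3 replicate 2, 0.122 without day 3 replicate 3, 0.192 without ES replicate 4, 0.0832 on contact totals (all by edgeR) and 0.292 by DESeq2. It was also lost with the replicate number as a block, at a log2 change of -0.42 (edgeR adjusted p = 0.374), although the numbers pair no samples here. The KLF4 contact highest in CPM, Il6st at 20 kb upstream, had a log2 change of -0.08 with a 95% interval of -0.48 to 0.32 between day 3 and ES.

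Day 6 listed 4047 interactions in all, against 23720 at day 3, and 2 of them belonged to these genes: the Il6st and Stat3 pairs present in all 9 lists. Neither was called between day 3 and day 6 by edgeR (5.33% of 2571 were, 1.32% higher and 4.01% lower), and none by DESeq2. An unadjusted edgeR p under 0.05 was reached by 1 of the 2, and by 456 of all 2571. Il6st at 20 kb had a log2 change of -0.54 ± 0.17 (edgeR adjusted p = 0.0501, Benjamini-Hochberg) and Stat3 at 20 kb -0.19 ± 0.19. Between day 6 and ES neither was called by edgeR (3.37% of 2076 were, 2.6% higher and 0.771% lower). DESeq2 gave an adjusted p for 1 of the 2 and did not call it. An unadjusted edgeR p under 0.05 was reached by 2 of the 2, and by 370 of all 2076. Il6st had a log2 change of 0.50 ± 0.20 and Stat3 of -0.53 ± 0.23. The mean CPM of Stat3 was nearly equal, at 5 ± 1.69 (SD, n = 4) at day 6 and 4.94 ± 1.18 (SD, n = 2) in ES. TMM scaling moved the median log2 change over all interactions from 0.58 to -0.01 in this comparison. The 4 day 6 libraries did not differ beyond sampling noise in any pair by a chi-square test, over 789 to 1076 interactions. Their spread may thus be counting error alone, and n = 4 may count 1 sample 4 times. The 3 KLF4 comparisons share groups.

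The TKO comparison asks what 24 h of doxycycline does to the H3K27ac contacts of these cells. Il6st contacts with 3 bins of its upstream region fell, and the bin lying among them had nearly equal values at both times. No contact of the named Lifr, Stat3 or Socs3 bins was called. Of the 30 interactions at 0 h, 26 were among the 27 at 24 h (86.7% and 96.3%). Over all genes and bins, 67728 interactions were in both lists, of 93248 at 0 h and 84256 at 24 h. By edgeR's quasi-likelihood test (Benjamini-Hochberg adjustment), 3 of the 26 changed, all lower at 24 h and all at Il6st, against 2.8% of the 67723 interactions tested, 2.2% lower and 0.601% higher.

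Il6st with the bin 50 kb upstream gave 24.9, 23.8 and 24.8 CPM at 0 h, from 127, 95 and 93 contacts. At 24 h it gave 10.4, 13 and 16 CPM, from 33, 61 and 60 contacts, all below the 0 h values. By CPM, a scale set for each chromosome separately, it was the strongest contact of the 4 named bins at 0 h (24.5 CPM on average). On the same scale it was below the strongest of the upstream Lifr start-site bin (28.5 CPM). The Il6st pair fell by 0.79 ± 0.14 on the log2 scale (1.73-fold, edgeR adjusted p = 1.66e-05, Benjamini-Hochberg, n = 3 and 2). Replicates 1 and 3 at 24 h agreed within sampling noise and were counted as 1 sample, and the call held in 13 of 13 alternatives. This is the same pair that was higher in ES than in MEF.

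The bin 30 kb upstream, chr13:112430001-112440000, gave 13.7, 12.8 and 14.1 CPM at 0 h and 5.38, 7.67 and 7.47 at 24 h. It fell by 0.86 ± 0.19 on the log2 scale (1.81-fold, edgeR adjusted p = 0.00104, Benjamini-Hochberg). The bin 20 kb upstream gave 22.5, 24.3 and 24.5 CPM at 0 h and 17.4, 16.8 and 14.1 at 24 h, and fell by 0.46 ± 0.14 (1.37-fold, edgeR adjusted p = 0.0369, Benjamini-Hochberg). Groups did not overlap in either. Between the bins at 30 and 50 kb, the one 40 kb upstream gave 12.7, 12 and 13.3 CPM at 0 h and 11.1, 11.9 and 12.5 at 24 h, with a log2 change of 0.00 and a 95% interval of -0.33 to 0.34. All 4 bins carried H3K27ac peaks at both times in the authors' table. The call at 20 kb was lost in 6 of 13 alternatives, among them the omission of any 1 library other than replicate 1 at 24 h (adjusted p from 0.0715 to 0.236) and DESeq2 (0.257).

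The 9 Il6st pairs that were not called had log2 changes from -0.38 to 0.24. The 3 nearest on the downstream side, within the gene, had lower means at 24 h, at 8.48 against 11.7 CPM (10 kb), 9.32 against 11.7 (20 kb) and 4.97 against 6.79 (30 kb), and none was called. Il6st pairs at 100 and 130 kb upstream were listed at 0 h and not at 24 h, at means of 4.59 and 3.62 CPM.

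No contact of the named Lifr, Stat3 or Socs3 bins passed the edgeR test. The 6 Lifr pairs had log2 changes from 0.07 to 0.34 with a median of 0.26, where the median over all interactions was 0.01. The highest was the strongest Lifr pair, 20 kb downstream, whose 24 h libraries (21.9 to 25.6 CPM) were all above the 0 h ones (18.6 to 21.6 CPM), with an edgeR adjusted p of 0.179 (Benjamini-Hochberg). The 4 Stat3 pairs had log2 changes from 0.02 to 0.21, and the pair at 10 kb upstream, absent from the ES list, gave 7.09, 8.48 and 6.76 CPM at 0 h and 9.72, 7.50 and 6.28 at 24 h. The Socs3 pair 90 kb downstream had a log2 change of -0.52 with a 95% interval of -0.92 to -0.11 and an edgeR adjusted p of 0.177 (Benjamini-Hochberg). The other 3 Socs3 pairs lay between -0.26 and 0.08. Whether the change at Il6st differed from that at the other genes was not tested.

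**Figure D4:**
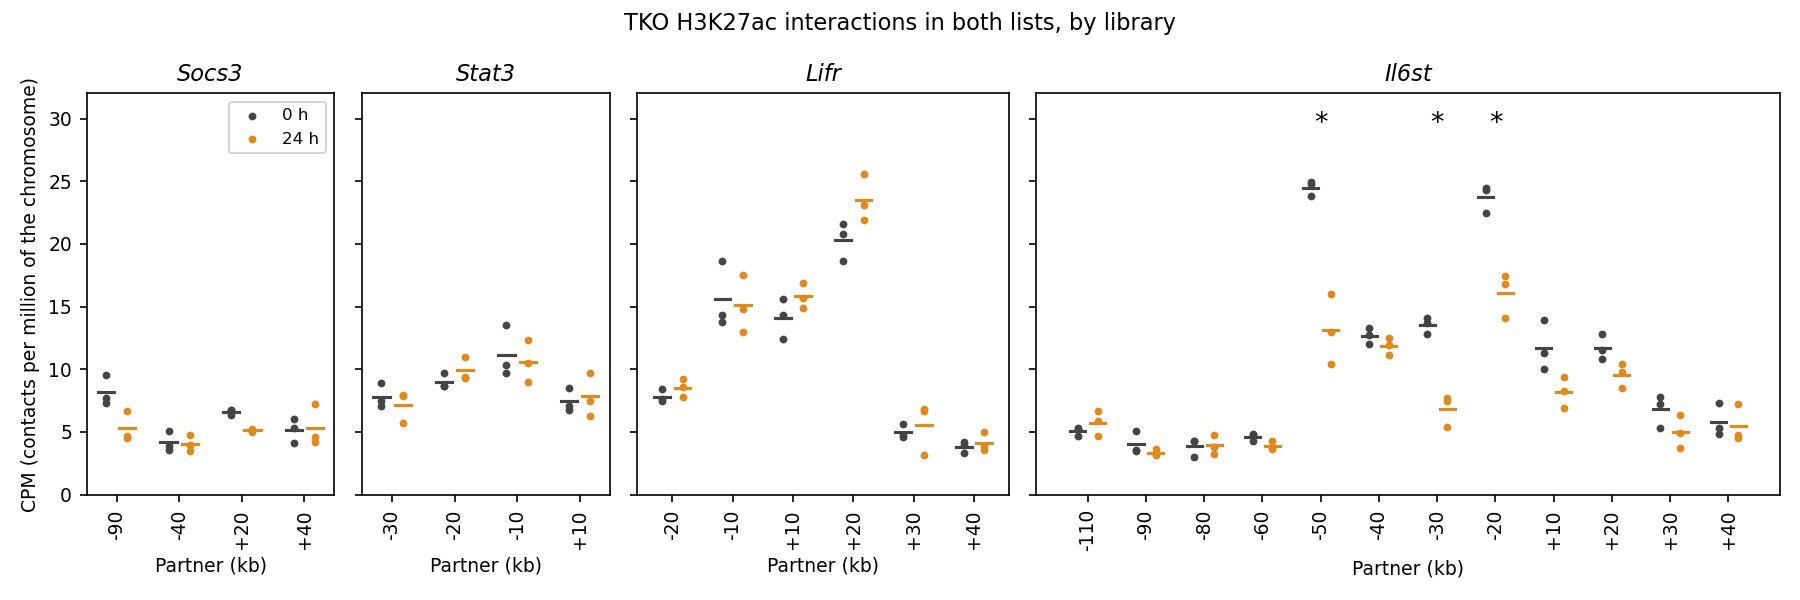
CPM (y axis, contacts scaled to the total of the chromosome) of each interaction in both TKO lists, by partner distance (x axis, kb, positive toward higher chromosome positions), with 1 point per library, grey for 0 h and orange for 24 h, and a bar at the mean of the 3 libraries. Asterisks mark the 3 Il6st pairs that passed the test; at -50 kb the 0 h libraries sit at 23.8 to 24.9 CPM and the 24 h libraries at 10.4 to 16.0 CPM.

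The other genes of the pathway were read through their numbers of listed interactions, from lists that include the 4 genes. Of 18 genes of LIF-type ligands, receptors and kinases, 12 had a named bin, and 8 of the 12 had more H3K27ac interactions in ES than in MEF and 2 fewer. Over all genes 65.4% had more and 14.7% fewer. Lif itself, the ligand, had none in MEF, 4 in ES and 5 in each TKO list, and Osm, which encodes the related ligand oncostatin M, had none, 3, 4 and 4. Of the 3 STAT genes with a bin, Stat2 went from 3 to 9, and Stat6 from 9 to 6, so Stat3 was not the only one with fewer. Of 10 feedback inhibitor genes, 6 had more in ES and 1 fewer: Pias4 had 2 in MEF and 9 in ES, Pias2 3 and 8, Pias3 none and 5, and Cish, named after its values were seen, 3 and 2.

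Of 12 genes known as STAT3 targets in ES cells, 10 had more H3K27ac interactions in ES, 1 had fewer and the median difference was 6, against 2 over all genes. Sall4, a pluripotency factor that is also among the markers above, had none in MEF and 20 in ES. Klf5, which encodes a relative of KLF4, had none and 8, the kinase gene Pim3 6 and 17, and Bcl3 4 and 15. Myc, named after its values were seen, was the gene with fewer, at 6 and 2. From 0 h to 24 h of doxycycline in TKO cells, 9 of the 12 had fewer and 3 more, with sums of 124 and 106, and over all genes 48.4% had fewer and 23.8% more. The list for 24 h was also the shorter of the pair, at 84256 against 93248 interactions, and the part of this in the counts was not tested.

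Some genes had a number of listed interactions across the 9 lists much like these 4. Likeness was the Euclidean distance of log2(number + 1) over the 9 lists, where a smaller value is more alike. Aldoc and Pigs were nearest to Lifr, both at 0.29, and their own numbers were equal in all 9 lists. Next to Lifr came 2310040G24Rik (0.58). Il6st was nearest to Copz1 (0.75), Mrpl43 (0.79) and Twnk (0.79), and Socs3 to Rprd2 (1.06), Hprt (1.08) and Wbp2 (1.08). Stat3 was nearest to 4931406P16Rik (1.14), F2rl1 (1.21) and Akip1 (1.26), which had 9, 7 and 5 H3K27ac interactions in MEF and 5, 5 and 4 in ES.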

How the data were processed

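HiChIP and Hi-C contacts were read from 9 lists of pairs of 10 kb bins. Reads were aligned with Bowtie2 2.2.3 to mm10, per the submitters' processing notes. The contact caller and the test behind the p-values are not given in the sources used here. The deposited files give for each library the raw contact count, a CPM and a ratio to an expected count, and for each list a p-value and an FDR over all libraries, per the file headers. The deposited CPM were found to be counts scaled to the contact total of the same chromosome. The Hi-C column of the same name is treated as a signal, since the authors' scaling of it is not stated. The deposited ratio was not used, and of the deposited domain files only the borders were used, not the score.

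Deposited counts were tested with edgeR's quasi-likelihood test (filterByExpr, TMM on the contact totals that count and CPM give, or on count sums in Hi-C, Benjamini-Hochberg adjustment over every interaction in both lists, threshold 0.05). Only groups under comparison entered a fit. Error bars are SD over samples or SE of the log2 change. Libraries that agreed within sampling noise by a chi-square test, while another pair of their group differed, were summed: ES KLF4 replicates 1 with 2 and 3 with 4, and TKO 24 h replicates 1 with 3. No pair of the 4 day 6 libraries differed, so they stayed separate. TKO 0 h replicates 2 and 3 lay close to that limit (chi-square p = 0.049 over all interactions tested) and stayed separate. The fit was tested on simulated counts, with 200 interactions changed 2-fold per comparison.

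The genes, lists and tests were chosen with earlier results of these data known. Interactions named in full were the strongest of each gene per H3K27ac and KLF4 list, the strongest found in MEF or ES alone, the longest per H3K27ac list, those present in all 4 H3K27ac lists and ES KLF4, and those called. Likeness named 3 genes per member, and each pathway list up to 4 genes by the difference between MEF and ES. Start sites and promoters came from RefSeq tables (GRCm38.p6). Alternatives were contact totals in place of TMM, totals of each chromosome, DESeq2, no filter, all libraries separate, a replicate block, leaving out each library, and, for numbers of listed interactions, equal list lengths, an FDR limit, 1 count cutoff, widened bins and start-site bins.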

Additional observations from a re-analysis of the deposited data

How the results depend on the processing

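Recomputed under the alternatives, the log2 changes of the 9 called interactions kept direction and side of the threshold 71 times and direction alone 24 times. Uncalled pairs could change direction, as Lifr at 10 kb did from MEF to ES (-0.10 to 0.79). Called interactions from MEF to ES in H3K27ac went from 5 to 8 on contact totals and on chromosome totals, 1 by DESeq2 and 3 to 6 without single libraries (3 without ES replicate 1). DESeq2 tested 13 of the 17 there. The 1 call from day 3 to ES became 0 on contact totals, by DESeq2 (3 of the 5 tested) and in the replicate block, and 0 to 1 without single libraries. From day 6 to ES the 0 calls became 1 on either total and were 0 without any single library. From day 3 to day 6 the 0 calls became 2 on either total, 1 with no filter and 0 to 1 without single libraries (1 without day 6 replicate 1). In TKO the 3 calls became 1 by DESeq2, which tested 5 of the 26, and 2 to 3 without single libraries. In Hi-C the 0 calls became 2 on count sums without TMM and were 0 without any single library. Same-numbered libraries did not deviate together (correlations from -0.07 to 0.03), so the numbers do not pair samples, and the replicate block changed no other count of calls: 5 from MEF to ES, 3 in TKO and 0 elsewhere. Where no cause is named, the cause was not tested.

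The summed number of listed interactions of the 4 genes, second group minus first, depended on the lists. Given in the order equal list lengths, FDR under 0.1, 1 count cutoff, widened bins and start-site bins (the last chosen after seeing the data), the difference of 7 from MEF to ES became 3, 3, 3, 15 and 12. The difference of 2 from day 3 to ES became 0 under the FDR limit, 1 with 1 cutoff and 0 at start sites. The difference of 10 from day 6 to ES became 1, 0, 3 and 16 under the first 4. The difference of -8 from day 3 to day 6 became 0, 0, -2 and -14. In TKO, -3 became 1 at equal lengths, which reversed it, then -1, -1, -12 and -5. In Hi-C, -3 became -12 at equal lengths, -5 with widened bins and -6 at start sites.

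Over all interactions, calls from MEF to ES were 5721 and 2458 by DESeq2. In TKO they were 1894, 3202 on contact totals and 269 by DESeq2. From day 3 to ES they were 532, 284 on contact totals, 267 on chromosome totals, 72 by DESeq2 and 298 in the replicate block. From day 6 to ES they were 70, and 1159, 1044, 15 and 127 in the same order. From day 3 to day 6 they were 137, and 1590, 1557, 42 and 89. In Hi-C they were 36, and 5224, 61, 0 and 76.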
